A study of Mus musculus with 3 samples.

Results

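The genes described here encode the proteins of the cytosolic ribosome. They were taken by symbol from a table of 20586 genes: every symbol that starts with Rps or Rpl and a digit, with Rplp0, Rplp1, Rplp2 and Rpsa. The rule left out 9 genes of the Rps6k kinase family and 5 symbols that carry a ps suffix for pseudogenes. It gave 85 genes on 19 chromosomes, of which 31 encode small subunit proteins and 46 encode large subunit proteins. The other 8 carry the symbol of a ribosomal protein with a suffix (Rpl3l, Rpl7l1, Rpl22l1, Rpl36al, Rpl39l, Rps27l, Rps27rt and Rps19bp1) and are called paralog-like below. CD45-positive cells were sorted from mouse thalamus 4 h after an intracerebroventricular injection, and their RNA was counted cell by cell with droplet sequencing. In the group called cKO IL-33, mice carried Cx3cr1-creER on 1 allele and floxed ST2 on both, ST2 being the receptor of the cytokine IL-33, and they received IL-33. WT IL-33 denotes Cx3cr1-creER heterozygous mice given IL-33, and WT vehicle such mice given vehicle. All 3 groups therefore carry Cx3cr1-creER, a tamoxifen-dependent recombinase expressed from a gene of microglia and other myeloid cells. Each group is 1 library, the sources used here do not give the number of animals in it, and floxed mice given vehicle were not analysed here.

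A ribosome is built from ribosomal RNA and a fixed set of proteins, most of them present in a single copy per particle, so cells make them in step with each other. Their messenger RNAs are abundant and stable. Most begin with a C followed by a run of pyrimidines, the terminal oligopyrimidine (TOP) motif, through which the growth regulator mTOR and the binding protein Larp1 control how they are translated and stored. In macrophages and microglia, as in other cells, the production of new ribosomes is tied to growth signals, among them Myc, which drives genes of ribosome assembly.

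The start regions of 9 members are printed to show this motif beside the genes on which the results below turn. Each line holds 15 bases before the annotated start and the first 25 bases after it, from the RefSeq promoter table of GRCm38.p6, 5′ to 3′ on the gene's strand. Capitals mark the longest run of C and T where it reaches 5 bases. The members were chosen after their values were seen: the 3 genes of the Rps27 group, 3 members with a run across the annotated start (Rps10, Rpl28, Rpl38), a member far below the others in WT IL-33 cells (Rpl10), and 2 paralog-like members that were higher in them (Rpl7l1, Rps19bp1).
Rps27, chr3:90213624-90213663, minus strand: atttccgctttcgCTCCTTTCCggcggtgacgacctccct
Rps27rt, chr9:114982715-114982754, minus strand: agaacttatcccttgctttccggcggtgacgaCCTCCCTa
Rps27l, chr9:66946071-66946110, plus strand: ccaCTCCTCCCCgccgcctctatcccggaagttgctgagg
Rps10, chr17:27635220-27635259, minus strand: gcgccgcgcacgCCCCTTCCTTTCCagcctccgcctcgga
Rpl28, chr7:4792950-4792989, plus strand: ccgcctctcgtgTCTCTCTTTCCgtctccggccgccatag
Rpl38, chr11:114668565-114668604, plus strand: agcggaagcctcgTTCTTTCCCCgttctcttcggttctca
Rpl10, chrX:74270801-74270840, plus strand: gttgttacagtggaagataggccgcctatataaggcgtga
Rpl7l1, chr17:46782632-46782671, minus strand: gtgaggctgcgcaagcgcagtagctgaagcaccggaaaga
Rps19bp1, chr15:80264282-80264321, minus strand: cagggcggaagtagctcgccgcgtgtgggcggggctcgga

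The libraries held 2687 cells of cKO IL-33, 2202 of WT IL-33 and 2709 of WT vehicle, with 12127214 to 18269042 unique molecular identifiers (UMIs, each standing for 1 captured transcript). The median cell held 5119 UMIs in cKO IL-33, 3951 in WT IL-33 and 5544 in WT vehicle. Microglial markers were found in nearly all cells: at least 3 of 8 were detected in at least 99.89% of the cells of each library, while the markers of T cells, B cells, NK cells, neutrophils and neurons, each class summed on its own, stayed under 4 CPM (counts scaled to a common library total). Monocyte markers summed to 3.78, 7.17 and 2.52 CPM in cKO IL-33, WT IL-33 and WT vehicle, and oligodendrocyte markers to 37.35, 35.46 and 33.12. In the same order endothelial markers summed to 23.28, 12.45 and 19.98 CPM and choroid plexus markers to 2.975, 3.463 and 6.076. The CD45 gene Ptprc stood at 411, 528 and 368 CPM in cKO IL-33, WT IL-33 and WT vehicle. Il1rl1, the gene of ST2, stood at 12.8, 5.77 and 11.6 CPM in that order; a 3′ tag does not report the deletion of other exons, and the sources used here do not name the exons that are deleted. Nearly all cKO IL-33 cells held Xist and no Y-linked UMI (2645 cells), most WT vehicle cells held Y-linked UMIs and no Xist (1979), and WT IL-33 held 802 and 670 cells of these kinds with 305 that held both. With 1 library per group there is no replicate spread and no test was made. Intervals in brackets are exact 95% intervals that cover counting error only.

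Ribosomal protein transcripts made up a smaller part of the RNA in WT IL-33 cells than in the other libraries. They held 12.8% of all UMIs in cKO IL-33 (12.78 to 12.81), 10.5% in WT IL-33 (10.49 to 10.52) and 14.9% in WT vehicle (14.86 to 14.89). Between cells, the quartiles were 10.5% and 14.9% in cKO IL-33, 9.10% and 11.96% in WT IL-33 and 12.6% and 17.01% in WT vehicle, so the interquartile ranges of WT IL-33 and WT vehicle did not overlap and that of cKO IL-33 overlapped with each. The mean cell carried 833 ribosomal protein UMIs in cKO IL-33, 579 in WT IL-33 and 1003 in WT vehicle. All other UMIs per cell numbered 5673, 4929 and 5741 in the same order. Thus WT IL-33 cells held 0.577 times the ribosomal protein UMIs of WT vehicle cells and 0.859 times the other UMIs, and the cKO IL-33 cells held 0.830 and 0.988 times those of WT vehicle. The ratio of small subunit to large subunit UMIs was 0.835 in cKO IL-33, 0.838 in WT IL-33 and 0.834 in WT vehicle, so the subunits kept their proportion. In droplet counts, less of a transcript per cell and a lower capture of it cannot be told apart. Summed over its 6 markers, border macrophage signal stood at 91.1, 13.8 and 77.2 CPM in cKO IL-33, WT IL-33 and WT vehicle, astrocyte signal over 3 markers at 268, 238 and 142 CPM, and microglial signal over 8 markers at 23340, 14940 and 21910 CPM. Their part in the results below, and that of the depth per cell, was not tested beyond the splits by cluster and depth given next.

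The same order of the libraries held in each of the 6 deposited cell clusters, which carry numbers and no cell type names. In cluster 0 the members took 14.0% of UMIs in cKO IL-33, 11.9% in WT IL-33 and 16.0% in WT vehicle. Cluster 2 had the lowest level in every library, with 10.2%, 8.83% and 12.2% in the same order. Cluster 1, to which most WT IL-33 cells belong, had 13.1% in 35 cKO IL-33 cells, 10.5% in 1815 WT IL-33 cells and 15.3% in 20 WT vehicle cells. WT IL-33 was lowest and WT vehicle highest in all of them. The order was also the same among cells of similar depth: between 4000 and 6000 UMIs the median cell had 12.8% in cKO IL-33, 10.6% in WT IL-33 and 14.9% in WT vehicle, and the other 4 depth ranges ran the same way. The gaps were smallest between 2000 and 3000 UMIs. There the medians were 11.17% in 86 cKO IL-33 cells, 10.61% in 353 WT IL-33 cells and 12.59% in 77 WT vehicle cells. Among cells called G1, S or G2M in the deposited table the medians were 12.2% to 12.7% in cKO IL-33, 10.4% to 10.5% in WT IL-33 and 14.7% to 14.9% in WT vehicle.

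**Figure D1:**
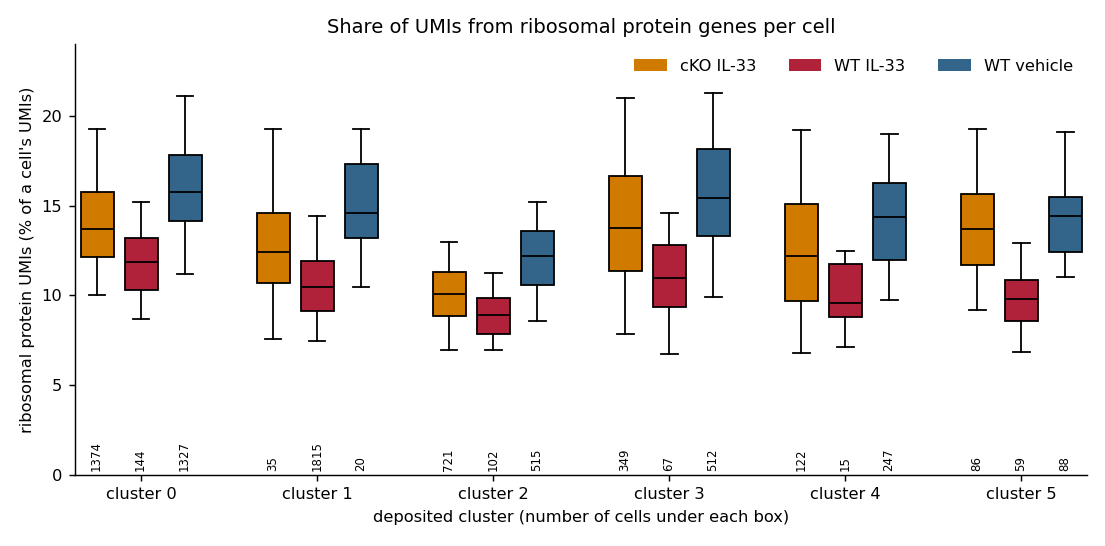
Share of each cell's UMIs that came from the 85 ribosomal protein genes (percent), by deposited cluster and library; boxes span the quartiles, lines mark the median, whiskers reach the 5th and 95th percentiles, and the number of cells stands under each box. WT IL-33 is lowest and WT vehicle highest in each of the 6 clusters, with medians of 13.7%, 11.8% and 15.8% in cluster 0 for cKO IL-33, WT IL-33 and WT vehicle.

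Gene by gene, IL-33 in WT mice went with a lower level of nearly every core ribosomal protein. Values are CPM over all cells of a library, ratios are log2 ratios of CPM after adding 1 CPM, and a gene counted as higher or lower when its CPM differed by at least 1.3-fold. Of the 85 members 81 reached a mean of 50 CPM over the libraries, as did 3573 genes in all. Between WT IL-33 and WT vehicle 65 of the 81 were lower and 1 was higher, where 29.3% of all genes were lower and 26.6% were higher. At 1.5-fold 22 were lower, against 19.1% of all genes, so the members' share past that larger fold was nearer to the background. Their median log2 ratio was -0.49 and their quartiles -0.59 and -0.41, against a median of -0.03 and quartiles of -0.46 and 0.41 for all genes. The core members thus shared a direction but not a size, from -0.92 in Rpl10a to -0.07 in Rpl4. The members' quartiles lay closer together than those of all genes, among which single genes moved further in either direction. All 31 small subunit genes (median -0.49) and all 46 large subunit genes (median -0.51) had a ratio below 0, with 28 and 37 of them past 1.3-fold. Of all 3573 genes 1851 had a ratio below 0.

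Among the 81 members past the minimum, the lowest ratios belonged to large subunit genes and to Rps3. Rpl10a, a large subunit protein carried by only part of the ribosomes in mouse embryonic stem cells, had 1137 CPM in cKO IL-33, 759 in WT IL-33 and 1437 in WT vehicle, a log2 ratio of -0.92 for WT IL-33 against WT vehicle (-0.95 to -0.89). Rpl10, an X-linked protein that helps finish the large subunit, had 1370, 928 and 1578 CPM in the same order and a ratio of -0.76. Rps3, a small subunit protein that also takes part in DNA repair and NF-κB signalling, had 1462, 1102 and 1860 CPM and a ratio of -0.75. WT IL-33 was lowest and WT vehicle highest for these 3 genes, and the intervals of the 3 libraries did not overlap. The large subunit genes Rpl32 (-0.74) and Rpl17 (-0.73) were also among the lowest, with the same order of libraries.

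At the other end, 2 core large subunit genes came close to their level in vehicle. Rpl4, which lines the exit tunnel, had 509 CPM in cKO IL-33, 609 in WT IL-33 and 640 in WT vehicle, and Rpl18 had 1212, 1350 and 1436. Their log2 ratios for WT IL-33 against WT vehicle were -0.07 (-0.11 to -0.03) and -0.09 (-0.12 to -0.06). Both were lowest in cKO IL-33 rather than in WT IL-33. Rplp1, of the acidic stalk that recruits elongation factors, had a ratio of -0.22.

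**Figure D2:**
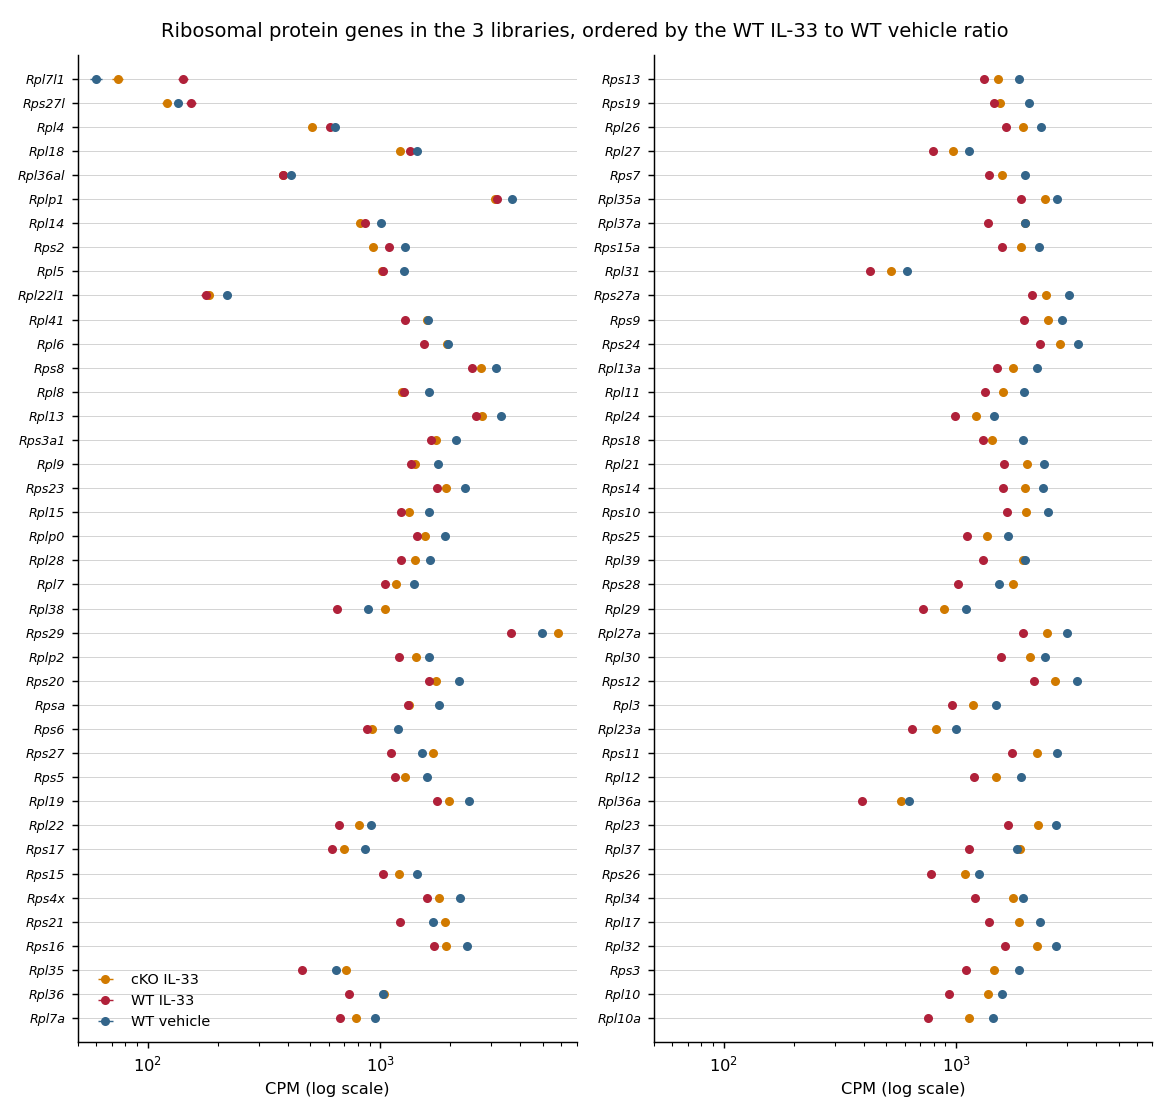
Level of the ribosomal protein genes at a mean of 50 CPM or more in each library (CPM, log axis; 80 of 81 drawn), ordered by the WT IL-33 to WT vehicle ratio from the highest at top left to the lowest at bottom right; bars are exact 95% Poisson intervals, mostly narrower than the points. In all but 2 genes, Rpl7l1 and Rps27l, the WT IL-33 point lies left of the WT vehicle point, and Rpl10a at the bottom right shows the widest gap, 759 against 1437 CPM.

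In 63 of 81 members cKO IL-33 lay between WT IL-33, the lowest, and WT vehicle, the highest. In 8 members cKO IL-33 was above both, and in 9 below both. These orders were not counted over all genes, so they have no background to be read against. Against WT IL-33, cKO IL-33 was above in 71 of 81 members, and in 1857 of all 3573 genes. At 1.3-fold 21 members were higher and 1 lower, where 29% of all genes were higher and 24.1% lower. At 1.5-fold 7 were higher, where 20.4% of all genes were. The counts past these folds are thus no larger than the share of all genes, and the members stood out only in sharing a direction: their median was 0.27 against 0.03 for all genes. The highest were the small proteins Rps28, Rpl37 and Rpl38. Rps28, which sits near the messenger RNA exit of the small subunit, had 1749 CPM in cKO IL-33, 1014 in WT IL-33 and 1533 in WT vehicle, a log2 ratio between these IL-33 groups, cKO over WT, of 0.79 (0.76 to 0.82). Rpl37 (1889, 1133 and 1823 CPM) had a ratio of 0.74 and Rpl38 (1047, 654 and 885 CPM) one of 0.68. In these 3 genes cKO IL-33 was highest and WT IL-33 lowest. The lowest ratios were those of Rpl7l1 (-0.93), Rps27l (-0.35) and Rpl4 (-0.26).

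Set against WT vehicle, cKO IL-33 was lower in most members by a smaller step. Of the 81 members 72 lay below 0, as did 1550 of all 3573 genes. The members' median was -0.27 with quartiles of -0.31 and -0.20, against 0.03, -0.09 and 0.15 for all genes. At 1.3-fold 6 members were lower, where 1.96% of all genes were, and none was higher, where 5.26% were. The count of 6 depends on the scaling: it was 18 with TMM factors, where 3.41% of all genes were lower, 22 with median-of-ratios size factors, where 3.72% were, and 2 with clusters weighted as in WT vehicle, where 0.896% were. At 1.5-fold none was lower, where 0.588% were. Under the main scaling the 6 were Rps2, Rps18, Rpsa, Rps19, Rps6 and Rpl8. Rps2, a target of arginine methylation, had 932 CPM in cKO IL-33, 1095 in WT IL-33 and 1283 in WT vehicle, a log2 ratio of -0.46 for cKO IL-33 against WT vehicle (-0.49 to -0.43). Rps18 (1426, 1311 and 1941 CPM) had a ratio of -0.44, and Rpsa, also known as the laminin receptor precursor, had 1336, 1322 and 1798 CPM and a ratio of -0.43. Over whole libraries Rps2 was lowest in cKO IL-33, which within clusters held in cluster 3 alone of those compared, while for Rps18 it was WT IL-33 and for Rpsa the intervals of these libraries overlapped. This comparison shares its WT vehicle library with the one above, and it sets nearly all female against nearly all male cells.

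Within the set, cKO IL-33 differed from both other libraries by the length of the protein. There were 9 core members with a coding length under 300 nt (Rps21, Rps27, Rps28, Rps29, Rpl37, Rpl37a, Rpl38, Rpl39 and Rpl41). For cKO IL-33 against WT vehicle their median log2 ratio was 0.14, with 6 of 9 above 0. The 68 longer core members had a median of -0.28 with 2 of 68 above 0. The division at 300 nt was chosen after the values were seen. Rps29, a zinc-binding small subunit protein coded by 168 nt, had 5846 CPM in cKO IL-33, 3672 in WT IL-33 and 4978 in WT vehicle. Its log2 ratio for cKO IL-33 against WT vehicle was 0.23 (0.22 to 0.24), close to that of Rpl38, coded by 210 nt (0.24, 0.21 to 0.27), and of Rps28, coded by 207 nt (0.19, 0.17 to 0.21). In each of these genes cKO IL-33 was the highest library. Over the 77 core members the log2 ratio was lower at longer coding length (on a log scale), with a Pearson r of -0.67 and a Spearman rho of -0.65, a description across genes that share libraries and are not independent. Among other genes, the 119 with a coding length under 300 nt had a median of -0.07, and the 3309 longer ones 0.04. Of these, 42 of 119 and 1931 of 3309 lay above 0. Between WT IL-33 and WT vehicle the medians of short and longer members were -0.48 and -0.51. The count of short members above 0 was 5 of 9, with Rpl37 turned to -0.015 and -0.023, when libraries were scaled by TMM or by median-of-ratios size factors. It was 7 of 9 with each cell weighted equally, and 9 of 9 both in cells of 3000 to 6000 UMIs and with clusters weighted as in WT vehicle. The short members' median stayed above 0 and the longer members' below 0 in each cluster compared, at 0.18 and -0.25 in cluster 0, 0.10 and -0.31 in cluster 2, and 0.12 and -0.22 in cluster 3.

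**Figure D3:**
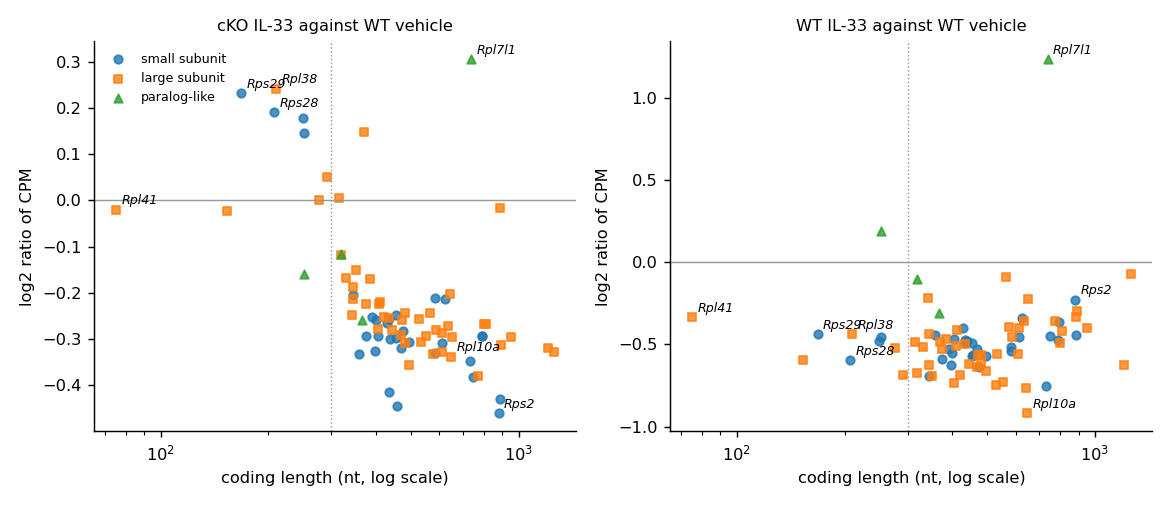
Log2 ratio of CPM of each ribosomal protein gene (points; circles small subunit, squares large subunit, triangles paralog-like) against its coding length in nt (log axis), for cKO IL-33 against WT vehicle on the left and WT IL-33 against WT vehicle on the right; the dotted line marks 300 nt. On the left the short members have a median of 0.14 and the longer core members -0.28, while on the right their medians are -0.48 and -0.51.

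Members with known duties outside the ribosome lay within the range of the core set. Rpl5 and Rpl11, which bind the p53 regulator Mdm2 when ribosome assembly is disturbed, had log2 ratios of -0.30 and -0.56 for WT IL-33 against WT vehicle. Rpl13a, which in human monocytes leaves the ribosome after interferon-γ and silences inflammatory transcripts, had 1766 CPM in cKO IL-33, 1507 in WT IL-33 and 2219 in WT vehicle, a ratio of -0.56. Rps6, the substrate of S6 kinase, had 918, 876 and 1196 CPM in the same order and a ratio of -0.45. Rps27a, made as a fusion with ubiquitin, had 2445, 2114 and 3050 CPM and a ratio of -0.53. WT IL-33 was lowest and WT vehicle highest for Rpl11, Rpl13a, Rps6 and Rps27a, while for Rpl5 the intervals of cKO IL-33 (1014 CPM) and WT IL-33 (1026 CPM) overlapped. Rps19, mutated in Diamond-Blackfan anaemia (-0.49), Rpl22, required for T cell development (-0.47), and Rpl38, required in mouse embryos for translation of Hox transcripts (-0.44), lay near the set's median. Rps25, needed for translation from viral internal entry sites (-0.59), lay near the set's lower quartile.

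In the stalk, through which elongation factors reach the ribosome, all 3 genes were lower in WT IL-33 than in WT vehicle by less than the set's median. The anchor Rplp0 had 1555 CPM in cKO IL-33, 1446 in WT IL-33 and 1909 in WT vehicle, a log2 ratio of -0.40 for WT IL-33 against WT vehicle. Rplp2 had 1428, 1199 and 1626 CPM in the same order, a ratio of -0.44. Rplp1 had 3116, 3181 and 3698 CPM, and cKO IL-33 was lower against WT vehicle (-0.25) than WT IL-33 was (-0.22). Thus the partners Rplp1 and Rplp2, which work as dimers of each other, did not keep the same ratio across the libraries.

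Of the 8 paralog-like genes 4 reached a mean of 50 CPM, while Rps19bp1, Rpl39l, Rps27rt and Rpl3l did not. Of those that did, 2 (Rpl7l1 and Rps27l) lay above 0 in WT IL-33 against WT vehicle, as no core member did. Rpl7l1, a nucleolar relative of Rpl7 that acts in large subunit assembly, had 74.0 CPM in cKO IL-33 (70.0 to 78.2), 142 in WT IL-33 (135 to 149) and 59.7 in WT vehicle (56.2 to 63.4), a log2 ratio of 1.24 for WT IL-33 against WT vehicle. Rps19bp1, which encodes a nucleolar partner of Rps19 and is no ribosomal protein, had 31.2, 66.3 and 29.7 CPM and a ratio of 1.13. Both were highest in WT IL-33 by more than the counting error. Rps27l, a p53 target, had 120, 153 and 134 CPM and a ratio of 0.19, and Rpl39l, best known from mouse testis, had 2.23, 4.95 and 2.52 CPM on 39, 60 and 46 UMIs. Rpl22l1, a relative of Rpl22, was lower in WT IL-33 by less than the core median: 184, 178 and 220 CPM, a ratio of -0.31. Rpl36al had 380, 383 and 412 CPM and a ratio of -0.10, against -0.67 for Rpl36a, to which its transcript is 87.7% identical over 332 aligned bases. Rpl3l, a gene of heart and skeletal muscle, had 1 UMI in cKO IL-33 and none in WT IL-33 or WT vehicle.

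Rps27rt, an intronless copy on chromosome 9, differed from Rps27 in cKO IL-33 against WT vehicle. Its annotated transcript is 100% identical to that of Rps27 on chromosome 3 over 341 aligned bases, and the sources used here do not say how the authors' counting treated reads that match several genes, so its UMIs are uncertain. It had 35.4 CPM in cKO IL-33, 26.4 in WT IL-33 and 51.8 in WT vehicle, a log2 ratio of -0.54 for cKO IL-33 against WT vehicle. Rps27 itself had 1680, 1110 and 1519 CPM and a ratio of 0.14 in that comparison. For WT IL-33 against WT vehicle both were lower, at -0.95 and -0.45, and for cKO IL-33 over WT IL-33 both were higher, at 0.41 and 0.60, the first of these at -0.007 with clusters weighted as in WT vehicle. In the start regions printed above, the longest pyrimidine run covers the annotated start in Rps27 and lies downstream of it in Rps27rt. However, Rps27rt also has pyrimidines (ctttcc) from its annotated start, and its downstream run (cctccct) occurs in Rps27 as well. The marked runs therefore do not set the copy apart by its start. Other members also have processed copies in the genome, and the same limit holds for them.

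X-linked members differed little between cells of either sex. Rpl10, Rps4x, Rpl36a and Rpl39 had log2 ratios of -0.76, -0.48, -0.67 and -0.59 for WT IL-33 against WT vehicle. Inside the WT IL-33 library, the cells with Xist and no Y-linked UMI had 970 CPM of Rpl10 and those with Y-linked UMIs and no Xist 906, and the values were 1611 and 1619 for Rps4x, 399 and 400 for Rpl36a and 1318 and 1327 for Rpl39. Over all 81 members the log2 ratio of these cells ranged from -0.21 to 0.15, and none of them was 1.3-fold lower or higher, where 2.21% and 12.1% of all genes were. With cells of 1 sex only, the members' median was -0.49 for WT IL-33 against WT vehicle (Y-linked UMIs and no Xist) and, for cKO IL-33 over WT IL-33, 0.26 (Xist and no Y-linked UMI). Between cKO IL-33 and WT vehicle, genotype, treatment and sex cannot be told apart.

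Within single clusters the members' median kept the direction of the whole libraries. It was furthest from their values in cluster 5, in both comparisons of cKO IL-33. Between WT IL-33 and WT vehicle the members' median was -0.43 in cluster 0, -0.47 in cluster 2, -0.47 in cluster 3 and -0.57 in cluster 5, the clusters with at least 50 cells in each of these libraries. At 1.3-fold 57 of 81 members were lower in cluster 0, where 14% of all genes were, and 59 in cluster 2, where 14.4% were. The counts were 58 in cluster 3 and 69 in cluster 5, where 27.1% and 34% of all genes were lower. Against WT vehicle, cKO IL-33 had member medians of -0.24, -0.29, -0.20, -0.23 and -0.13 in clusters 0, 2, 3, 4 and 5, and against WT IL-33 they were 0.22, 0.19, 0.28 and 0.46 in clusters 0, 2, 3 and 5. Rpl10a kept the order of the whole libraries, with 1250, 960 and 1551 CPM in cluster 0 for cKO IL-33, WT IL-33 and WT vehicle, 861, 666 and 1144 in cluster 2, and 1158, 722 and 1313 in cluster 5. Rps29 had 6333, 4223 and 5267 CPM in cluster 0 and 4698, 3332 and 4188 in cluster 2, with cKO IL-33 highest in both. Rps2 differed in order between clusters: it had 999.6, 857 and 1354 CPM in cluster 0, 709, 684 and 1006 in cluster 2 and 947, 924 and 1217 in cluster 5, but 1105, 1228 and 1366 in cluster 3, where WT IL-33 exceeded cKO IL-33. Rpl7l1 was highest in WT IL-33 in clusters 0, 2, 3 and 5, with 105 CPM in cluster 0 and 147 in the WT IL-33 cells of cluster 1.

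Cluster 2 held less of these transcripts than cluster 0 in every library. As a description of clusters that were formed from these cells' own genes, the members' median for cluster 2 against cluster 0 was -0.46 in cKO IL-33, -0.44 in WT IL-33 and -0.40 in WT vehicle, and 66, 56 and 53 of 81 members were at least 1.3-fold lower, where 7.5%, 16.4% and 7.56% of all genes were. Clusters 3 and 5 lay nearer to cluster 0, at -0.02 and -0.07 in cKO IL-33, -0.07 and -0.29 in WT IL-33 and -0.04 and -0.17 in WT vehicle. Rps27l was the member with the highest ratio in cluster 4, at 0.74 in cKO IL-33 cells and 0.46 in those of WT vehicle.

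Other genes of the translation machinery had mixed ratios. Of 26 transcripts outside the set known to carry a TOP motif, 24 reached 50 CPM: 8 were lower and 3 higher in WT IL-33 than in WT vehicle, with a median of -0.17. The share that was lower is near the 29.3% of all genes, and 26.6% of all genes were higher. Those lower included Fau, which encodes a small subunit protein fused to a ubiquitin-like one (4261 CPM in cKO IL-33, 3132 in WT IL-33 and 4905 in WT vehicle, a log2 ratio of -0.65), and the elongation factor Eef1a1 (3312, 2392 and 3788 CPM, -0.66). Rack1, the scaffold on the small subunit, had a ratio of -0.41. Within initiation factor 3, Eif3f (295, 190 and 361 CPM, -0.92) and Eif3l (56.8, 107 and 56.9 CPM, 0.90) lay at opposite ends, and the elongation factor Eef1g was higher (173, 385 and 219 CPM, 0.81). In cKO IL-33 against WT vehicle the median of these 24 genes was -0.24, with 23 below 0, near the -0.27 of the ribosomal proteins. Of all 3573 genes 1550 were below 0 in that comparison.

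Most ribosome assembly genes that passed the minimum were higher in WT IL-33, and genes that regulate translation were mixed. Of 27 ribosome biogenesis genes at 50 CPM or more, 24 were higher and 1 lower than in WT vehicle, where 26.6% of all genes were higher and 29.3% lower, and their median was 1.02. In cKO IL-33 24 were lower and 1 higher than in WT IL-33, where 24.1% of all genes were lower and 29% higher, and their median was -1.02. Their median for cKO IL-33 against WT vehicle was 0.09. The minimum is a mean over the 3 libraries, and some of these genes passed it only through their level in WT IL-33. An example is Nop14, with 32.9 CPM in cKO IL-33, 87.65 in WT IL-33 and 31.3 in WT vehicle. Nip7, Nolc1, Gnl2 and Polr1a were likewise under 50 CPM in both cKO IL-33 and WT vehicle. Eif4ebp1 and Eif4e, in the list that follows, passed in the same way, Eif4e with 45.4 CPM in cKO IL-33, 88.6 in WT IL-33 and 44.4 in WT vehicle. The counts and medians of both lists are thus partly set by that filter. Of 19 translation control genes 11 were higher and 4 lower in WT IL-33 than in WT vehicle, against the same 26.6% and 29.3% of all genes. The higher ones included Eif4ebp1, the mTOR-regulated repressor of initiation (32.0 CPM in cKO IL-33, 100.1 in WT IL-33 and 26.7 in WT vehicle, a log2 ratio of 1.87), the initiation factors Eif2s1 (1.49) and Eif4a1 (1.27), the stress regulator Atf4 (1.29) and the TOP-binding protein Larp1 (98.9, 205 and 94.2 CPM, 1.11). The 4 lower ones were the kinases Rps6ka3 (-0.71) and Eif2ak2 (-0.70), the repressor Eif4ebp2 (-0.67) and the stress protein Sesn1 (-0.55). Myc, below the minimum mean, had 26.9, 89.1 and 16.0 CPM. The proteins of the mitochondrial ribosome had a median of 0.08 over 21 genes, with 7 higher and 1 lower, a share of higher genes near the 26.6% of all genes. WT IL-33 thus held less of the ribosome's protein transcripts. Because the filter admits genes through their WT IL-33 level, these counts do not show that assembly factors as a class were higher there. In the assembly factors counted, cKO IL-33 and WT vehicle lay close together.

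**Figure D4:**
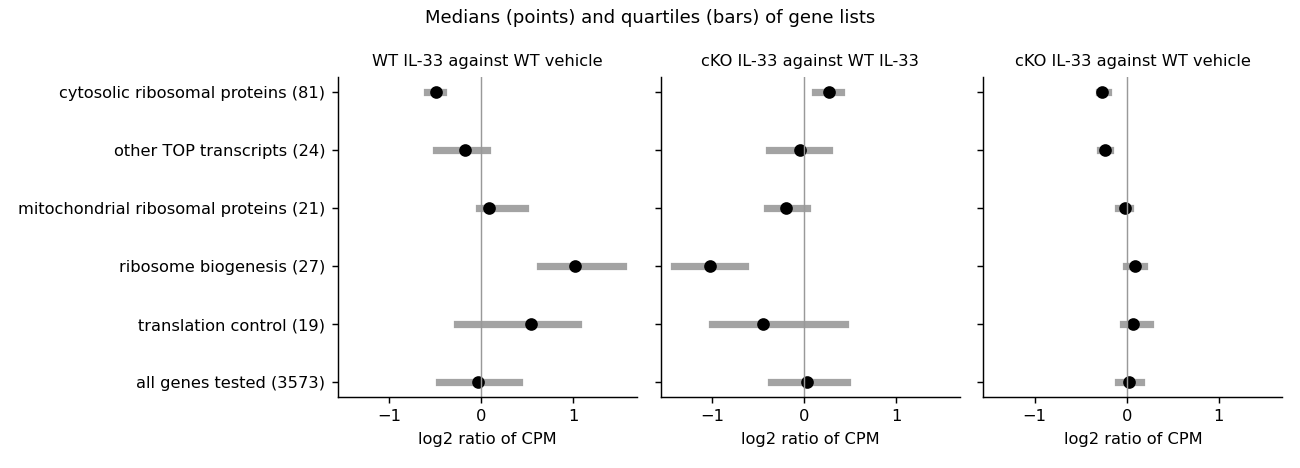
Medians (points) and quartiles (bars) of log2 CPM ratios for 5 gene lists and for all 3573 genes tested, in the 3 comparisons; the number of genes stands beside each list. The ribosomal proteins have the medians -0.49, 0.27 and -0.27 with narrow quartiles, and the ribosome biogenesis genes 1.02, -1.02 and 0.09. Some of the biogenesis genes reached the minimum only through WT IL-33.

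The promoter table matched 65 of the 85 members, 57 of them core. A run of at least 8 pyrimidines between 15 bases before and 25 bases after the annotated start was found in 49.1% of the 57 core members, against 20.7% of the tested genes with a promoter in the table and 17.5% of all 27025 promoters. A start at C followed by at least 4 pyrimidines occurred in 22.8% of core members, against 3.37% of tested genes. The letters CCGGAAG, an ETS-type motif read on both strands over the 300 bases of the table, were found in 42.1% of core members and 22.2% of tested genes, and AAGATGG, the core of a YY1-type motif, in 15.8% and 9.8%. The run of pyrimidines did not separate members by their ratio: the median for WT IL-33 against WT vehicle was -0.52 in 28 core members with it and -0.49 in 29 without it. Rpl10, printed above with no such run, had the second lowest ratio among members past the minimum, at -0.76, and Rps10, printed with a run of 13 bases, lay at -0.57. These are matches of letters in annotated windows, and an annotated start can differ from the start used in these cells.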

How the data were processed

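Droplet libraries (10x Chromium, Chip G, chemistry V3.1) were made from CD45-positive thalamic cells, per the labels' protocols. The authors deposited a table of raw UMI counts per gene and cell (20586 genes, 7598 cells) and a table of cell annotations with library, cluster number, phase and percent of mitochondrial and ribosomal UMIs. Cell Ranger 5.0, Seurat 4.0.1 and the build GRCm38 (mm10) are listed in the submitters' processing notes. The sources used here do not give the cell filter, doublet treatment or handling of reads that match several genes, and no doublet caller was run. The deposited ribosomal percent equalled the share of all 138 symbols that start with Rp, 53 of them outside the set described, in 100% of cells within 0.0001 percentage points, so it was not used. The deposited count per cell equalled the table's sum in 100% of cells, and 2 barcodes occurred in 2 libraries.

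For each gene, UMIs were added up over a library's cells and scaled by the library's total (CPM). No test was made, each group being 1 library: CPM have exact Poisson intervals and ratios exact conditional binomial (Clopper-Pearson) intervals, at 95%, for counting error only. Log2 ratios use a pseudocount of 1 CPM, and counts of genes a minimum mean of 50 CPM and a fold of 1.3. Within clusters, at least 50 cells per library were required. A 3′ UMI count is not divided by length, and levels were not ranked between genes. Gene positions and coding lengths come from GENCODE on GRCm38, promoters from RefSeq on GRCm38.p6. Named members were those with the 6 lowest and 6 highest ratios in WT IL-33 against WT vehicle and the 3 lowest and highest in each other comparison, the paralog-like, stalk and X-linked genes, Rpsa, and 10 with duties outside the ribosome; other genes named were added after their values were seen, and some genes that the rule names are not reported here. Members, lists and folds were chosen with earlier results of these data known. Alternatives covered scaling (TMM of edgeR 4.0.16 in R 4.3.3, median-of-ratios size factors, totals without mitochondrial and ribosomal genes), pseudocount, minimum, fold, depth, phase, sex, cluster makeup and cell weighting. The procedure, in Python 3.11.15 with numpy 2.4.6, pandas 2.3.3 and scipy 1.17.1, was tested on simulated counts.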

Additional observations from a re-analysis of the deposited data

Results flagged for a closer look

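In 8 members the libraries of the 2 IL-33 groups lay on opposite sides of WT vehicle by more than the counting error, and the difference between them was not tested. The share of all genes that meet the same rule was not counted, so this count has no background to be read against. With many UMIs per member, small ratios such as that of Rpl37 also pass the counting error. The log2 ratios to WT vehicle were 0.24 in cKO IL-33 and -0.44 in WT IL-33 for Rpl38, 0.23 and -0.44 for Rps29, 0.19 and -0.60 for Rps28, and 0.18 and -0.48 for Rps21. They were 0.15 in cKO IL-33 and -0.49 in WT IL-33 for Rpl35, 0.14 and -0.45 for Rps27, and 0.05 and -0.69 for Rpl37. The value of Rpl37 in cKO IL-33 turned to -0.015 with TMM and -0.023 with median-of-ratios size factors, so that it no longer lay on the other side. Rps27l ran the other way, with -0.16 in cKO IL-33 and 0.19 in WT IL-33. Of these 8 genes 6 belong to the 9 core members with a coding length under 300 nt. The comparisons share the WT vehicle library.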

How the results depend on the processing

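The members' median kept its direction in every comparison and alternative: it ranged from -0.581 to -0.459 for WT IL-33 against WT vehicle, 0.206 to 0.316 between cKO IL-33 and WT IL-33, and -0.339 to -0.24 between cKO IL-33 and WT vehicle. In this order of comparisons the medians were -0.581, 0.316 and -0.31 with totals that leave out mitochondrial and ribosomal protein genes, a setting that put the median of all genes at -0.118 for WT IL-33 against WT vehicle. They were -0.53, 0.243 and -0.332 with TMM scaling. Median-of-ratios size factors gave 0.206 and -0.339 in the last 2 comparisons. Weighting clusters as in WT vehicle, an alternative added after the data were seen, gave -0.459, 0.239 and -0.24. The cause of these shifts was not tested. The 6 members lower in cKO IL-33 than in WT vehicle became 18 with TMM (3.41% of all genes lower), 22 with median-of-ratios size factors (3.72%) and 2 with clusters weighted (0.896%). The 21 members higher in cKO IL-33 than in WT IL-33 became 13 with clusters weighted and 13 among members of at least 300 nt, where fewer genes were counted and which was also added later. The second keeps the main scaling, under which 29% of all genes were higher. With clusters weighted the share of all genes was not counted for this comparison, so that count has no background beside it. At 1.5-fold the counts were 22, 7 and 0 in the same order of comparisons. Rpl39l turned to -0.092 for WT IL-33 against WT vehicle in sex-matched cells and Rps27rt to -0.007 between cKO IL-33 and WT IL-33 with clusters weighted. Low counts limit Rpl39l, Rpl3l and clusters with few cells of a library. No paired analysis was possible because each group has 1 library.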
